A study of Mus musculus with 8 samples.

Results

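The 10 genes described here encode enzymes of phosphatidylcholine and phosphatidylethanolamine synthesis, and were chosen by name: Etnk1, Pcyt2, Chka, Chkb, Pcyt1a, Pcyt1b, Chpt1, Cept1, Pisd and Lpin1. All 10 were found among the 27179 genes of the deposited count table, and all 10 passed the filter on low counts that left 15073 genes for testing. They were followed in 8 RNA-seq libraries of mouse plasma cells, the antibody-secreting cells of the B lineage, from 4 groups of 2 libraries. The groups were Xbp1KO (genotype Xbp1-/-, batch 2), batch 2 WT (replicates 3 and 4), Blimp1KO (genotype Blimp1-/-, batch 1) and batch 1 WT (replicates 1 and 2). All groups share the C57BL/6 background and bone marrow as the source, and all cells were sorted for CD138 and for green fluorescence from a Blimp1-GFP reporter, so every group carries that reporter. The names of the deposited tables of batch 2 bear the tag CreER in WT and in Xbp1KO alike. How and when each gene was deleted, the driver of any Cre, and the age and sex of the mice are not given in the sources used here. The series text calls the replicates biological, without saying whether each came from a separate mouse.

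Phosphatidylcholine and phosphatidylethanolamine are the main lipids of the endoplasmic reticulum, the membrane system in which plasma cells fold and assemble antibody. In each arm of the Kennedy pathway a kinase phosphorylates choline or ethanolamine, a cytidylyl transferase activates the product to CDP-choline or CDP-ethanolamine, and a transferase joins the head group to diacylglycerol. XBP1 is a transcription factor of the unfolded protein response, and its forced expression in mouse fibroblasts is known to raise phosphatidylcholine synthesis and enlarge the endoplasmic reticulum. Blimp1 is the transcription factor encoded by Prdm1 that drives plasma cell differentiation. The comparisons ask how the mRNAs of these enzymes stood in plasma cells without either factor, each knockout against WT of its own batch.

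Libraries held 44012152 to 145411827 counts. Immunoglobulin genes took 25.2% to 30.0% of counts in Xbp1KO and 64.8% to 69.7% in batch 2 WT, and 55.4% to 58.4% in Blimp1KO and 75.6% to 75.7% in batch 1 WT. Levels are given as CPM, counts relative to library size, with library sizes scaled by TMM, a trimmed mean of gene ratios, with factors between 0.564 and 2.11. The targeted genes were still counted in the knockouts. Xbp1 had 1302 and 1105 CPM in Xbp1KO, against 2129 and 2203 CPM in batch 2 WT, at -0.85 ± 0.25 on the log2 scale (adjusted p = 0.0939). Prdm1 had 243 and 176 CPM in Blimp1KO, against 301 and 306 CPM in batch 1 WT, at -0.54 ± 0.25 (adjusted p = 0.401). Knockout and WT libraries did not overlap for either gene, but neither difference passed the test. Counts over a whole gene do not separate deleted from remaining exons, and the deleted exons are not given in the sources used here, so these values do not check the labels. All 12 plasma cell markers listed were detected in all 8 libraries. Their summed CPM was lower in both knockouts without overlap, at 40778 and 32700 in Xbp1KO against 68761 and 50898 in batch 2 WT, and at 59468 and 73814 in Blimp1KO against 120068 and 112328 in batch 1 WT. Jchain alone made up most of each sum, so the sums mainly follow this 1 gene. It had 36317 and 29069 CPM in Xbp1KO, against 62641 and 45493 in batch 2 WT. In Blimp1KO it had 54776 and 67398 CPM, against 112223 and 103865 in batch 1 WT. Of these 12, edgeR called 2 lower and 0 higher in Xbp1KO, Fkbp11 (-4.06 ± 0.34, adjusted p = 0.00226) and Mzb1 (-1.96 ± 0.29, adjusted p = 0.0120). There 7 estimates were above 0 and 5 below, with a median log2 fold change of 0.07 and 6 at an unadjusted p below 0.05. In Blimp1KO 0 were called, all 12 estimates were below 0 and 2 had an unadjusted p below 0.05. The part of this lower marker sum in the results on the members was not tested. The summed CPM of 12 neutrophil and monocyte markers was 44.0 and 1460 in Xbp1KO, 14.3 and 608 in batch 2 WT, 532 and 306 in Blimp1KO, and 367 and 457 in batch 1 WT. None of these 12 was at 0. The sum of 10 erythroid and megakaryocyte markers was 6.59 and 665 in Xbp1KO, 20.6 and 204 in batch 2 WT, and 19.9 to 105 in the libraries of batch 1. By both sums, Xbp1KO replicate 2 and WT replicate 4 thus stood above Xbp1KO replicate 1 and WT replicate 3, with Xbp1KO replicate 2 the highest. Of the 44.0 CPM in Xbp1KO replicate 1, Itgam held 41.7, so that sum mainly follows this 1 gene. Itgam had 40.8 CPM in Xbp1KO replicate 2, against 7.66 and 14.8 CPM in batch 2 WT. In Blimp1KO it had 58.7 and 44.6 CPM, against 12.3 and 15.5 CPM in batch 1 WT. The summed CPM of 12 mature B cell markers was 591 and 617 in Blimp1KO and 193 and 155 in batch 1 WT, and 153 to 217 in batch 2. Most of the Blimp1KO sums came from Ms4a1, at 285 and 240 CPM, and Spib, at 157 and 197 CPM. Of these 12, edgeR called 1 higher in Blimp1KO, beside 0.862% of all genes tested. There 11 estimates were above 0 and 1 below, and 6 had an unadjusted p below 0.05. In Xbp1KO 1 was called higher, beside 7.7% of all genes tested, with 10 estimates above 0 and 2 below. T and NK cell markers summed to 11.7 to 32.7 CPM, dendritic cell markers to 3.73 to 31.5 and stromal and endothelial markers to 29.3 to 63.4 over the 8 libraries. Pecam1 alone had 22.4 to 58.7 CPM, so the stromal and endothelial sum mainly follows this 1 gene. In bulk samples, fewer cells of a type and less RNA per cell cannot be told apart. The deposited log2 FPKM tables of replicates 1 and 2 of batch 1 WT and of Blimp1KO each match the count column of the other replicate of their group, at Spearman correlations above those with their own number. Group membership is the same in both, and the results below come from the counts.

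Per length, the members spanned a wide range of levels. RPKM here is the CPM divided by gene length in kilobases. The median RPKM over the 8 libraries was 52.9 for Etnk1, against 8.83 for Cept1, 6.91 for Pcyt2, 6.06 for Pcyt1a and 5.54 for Pisd. It was 3.13 for Chpt1, 2.90 for Chka and 1.41 for Lpin1, while Chkb and Pcyt1b had 0.0608 and 0.0200. The lowest Etnk1 library, at 27.5 RPKM, stood above the highest Cept1 library, at 12.6 RPKM. The ranges over libraries overlapped between Cept1 and Pcyt2, between Pcyt2 and Pcyt1a, and between Pcyt1a and Pisd. Within every library, however, Cept1 stood above Pcyt2, Pcyt1a and Pisd. The order of Pcyt2 and Pcyt1a, and that of Pcyt1a and Pisd, was not the same in all libraries. Etnk1, the kinase that starts the ethanolamine arm, was thus the most abundant of the 10 mRNAs in all 8 libraries, and Pcyt1b and Chkb had the fewest counts, with the level of Chkb uncertain for a reason given with its values.

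Of the 10 members, 1 was called lower and 0 higher in Xbp1KO by edgeR's quasi-likelihood test at a Benjamini-Hochberg adjusted p below 0.05 over all genes, where 7.7% of all genes tested were called in that comparison. At an unadjusted p below 0.05 there were 3 members, beside 3552 of all 15073 genes tested. DESeq2 called 2 members and limma-voom 1, beside 2220 and 1473 of these genes. Limma on the deposited log2 FPKM called 1, beside 1125 of 13945 genes. The median log2 fold change of the members was 0.15 in Xbp1KO, beside 0.08 over all genes tested. In Blimp1KO 0 members were called, against 0.862% of all genes tested. There, 0 members had an unadjusted p below 0.05, beside 2093 of all 15073 genes tested. DESeq2, limma-voom and limma on log2 FPKM each called 0 members, beside 862, 83 and 179 genes. The median there was -0.08 for the members and -0.01 for all genes tested.

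**Figure D1:**
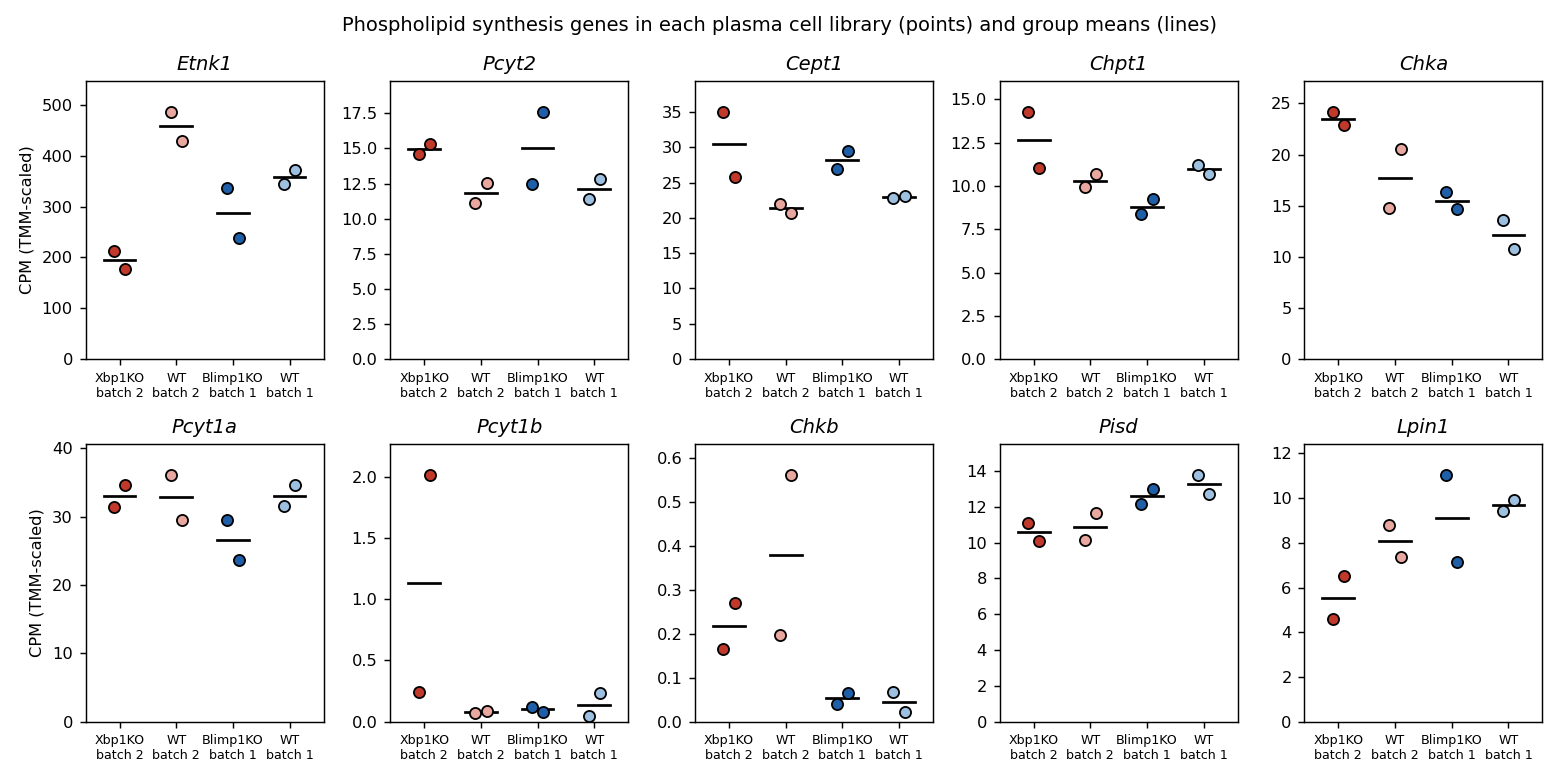
CPM on TMM-scaled library sizes (linear axes from 0) of each of the 10 genes in every library (points), with group means (lines), for Xbp1KO, batch 2 WT, Blimp1KO and batch 1 WT. Etnk1 lies at 212 and 177 CPM in Xbp1KO, below all other libraries, and the Pcyt1b signal comes mostly from 1 Xbp1KO library.

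Etnk1 (chromosome 6, 143166866 to 143208546, GRCm38.p6) encodes ethanolamine kinase, which makes phosphoethanolamine, and was the member called in Xbp1KO. It stood at 212 and 177 CPM in Xbp1KO libraries, against 487 and 430 CPM in batch 2 WT. Blimp1KO libraries had 336 and 239 CPM and batch 1 WT had 344 and 373 CPM. Both Xbp1KO libraries thus lay below every other library, and both Blimp1KO libraries lay below both of their WT libraries. Etnk1 fell in Xbp1KO to 0.424 of its WT level, at -1.24 ± 0.24 on the log2 scale (± SE; adjusted p = 0.0264). The counts behind it were 39704 and 16386 in Xbp1KO, against 57002 and 29859 in batch 2 WT, so counting error is small beside the spread between libraries. In Blimp1KO the log2 fold change was -0.32 ± 0.23 (adjusted p = 0.646), with a 95% interval of -0.87 to 0.23. The difference between the Xbp1KO and Blimp1KO effects was -0.92 ± 0.33 (adjusted p = 0.233 in edgeR and 0.0395 in DESeq2).

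The call on Etnk1 held with DESeq2 (adjusted p = 1.43e-06), limma-voom (0.0208) and limma on the deposited log2 FPKM (0.0165). In edgeR it held with RLE scaling (adjusted p = 0.0248), without immunoglobulin genes (0.0159) and with no filter (0.0112). It also held there in batch 2 alone (0.0231), against pooled WT (0.0407) and with a replicate block (0.0380). The call held when either Blimp1KO library was left out. It was lost when Xbp1KO replicate 1 or 2, or WT replicate 1, 2, 3 or 4, was left out, with log2 fold changes from -1.45 to -1.09. Scaling by total counts alone ended it as well, at -0.08 (adjusted p = 0.770), and that scaling shifted the log2 fold changes of all genes in Xbp1KO by a median of 1.16. Relative to the median of all genes, Etnk1 stood at -1.32 under TMM and at -1.32 under total counts. A change of scaling shifts all genes nearly alike, so this distance stays the same by construction. Pcyt2, for example, stood at 0.26 under both. The equal distances therefore do not tell which scaling is right and are no test of the fall.

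**Figure D2:**
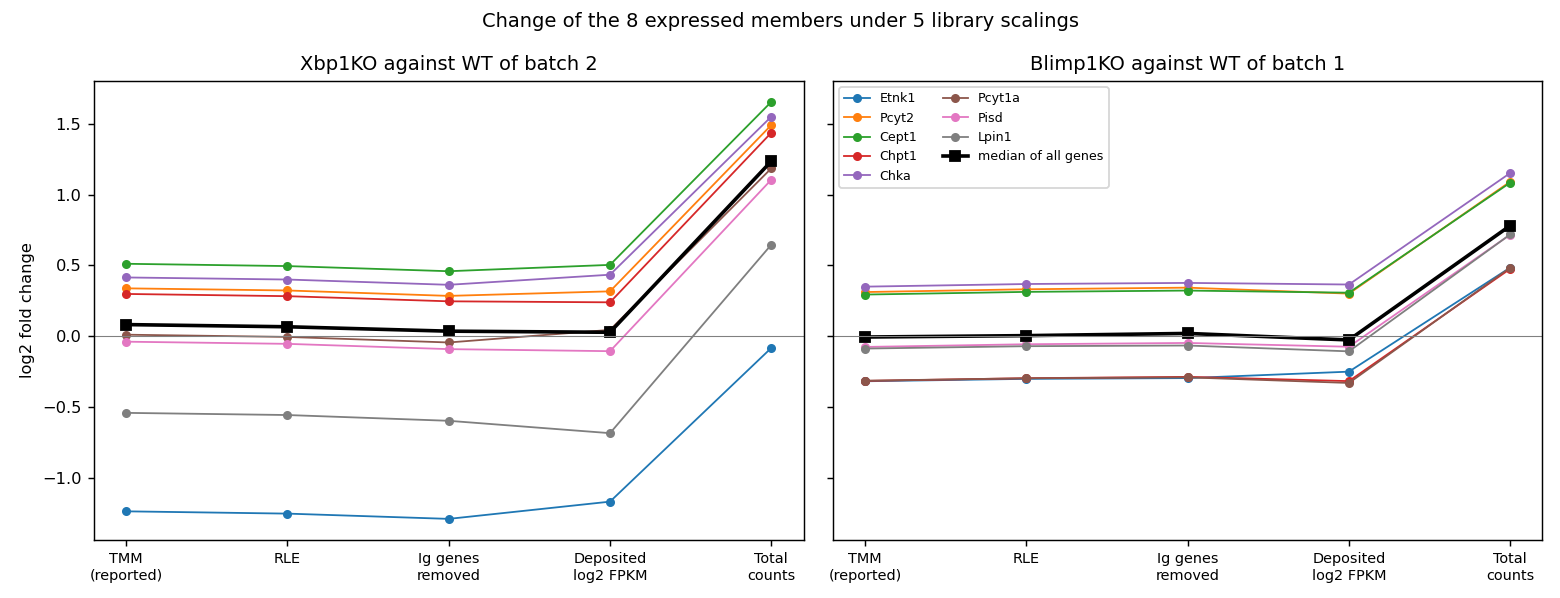
Log2 fold change (vertical axis) of the 8 members other than Pcyt1b and Chkb under TMM, RLE, removal of immunoglobulin genes, the deposited log2 FPKM and total counts without scaling factors, for Xbp1KO (left) and Blimp1KO (right). The black squares are the median of all genes tested. Under total counts the genes shift by a median of 1.16 and 0.79, and the members shift with them.

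Pcyt2 (chromosome 11, 120610062 to 120617947) encodes the cytidylyl transferase of the ethanolamine arm and acts directly after Etnk1. It had 14.6 and 15.3 CPM in Xbp1KO, against 11.1 and 12.6 CPM in batch 2 WT. In Blimp1KO it had 12.5 and 17.6 CPM, against 11.4 and 12.8 CPM in batch 1 WT. The Xbp1KO libraries lay above their WT libraries, and the Blimp1KO libraries overlapped theirs. Neither difference passed the test, with log2 fold changes of 0.34 ± 0.19 in Xbp1KO (adjusted p = 0.349) and 0.31 ± 0.19 in Blimp1KO (adjusted p = 0.559). The 95% intervals, -0.11 to 0.79 and -0.14 to 0.76, hold no doubling or halving. With 1 library left out the value in Blimp1KO ran from 0.045 (without Blimp1KO replicate 2) to 0.59 (without Blimp1KO replicate 1), and that in Xbp1KO from 0.25 to 0.42.

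Ratios between members within a library, where library scaling cancels, are given for 5 pairs as a description. The pairs were chosen with the values of the members known, so the ratios restate those values and carry no test. The ratio of Etnk1 to Pcyt2 in RPKM was 4.14 and 3.30 in Xbp1KO, against 12.5 and 9.78 in batch 2 WT. It was 7.69 and 3.87 in Blimp1KO, against 8.59 and 8.31 in batch 1 WT. Libraries of both knockouts lay below their WT libraries. The ratio of Etnk1 to Chka, the kinases of both arms, was 7.32 and 6.44 in Xbp1KO, against 27.5 and 17.4 in batch 2 WT. In Blimp1KO that ratio was 17.1 and 13.6, against 21.2 and 28.8 in batch 1 WT. The ratio of Pcyt1a to Chka was 1.34 and 1.57 in Xbp1KO, against 2.53 and 1.48 in batch 2 WT, which overlap, and 1.87 and 1.66 in Blimp1KO, against 2.40 and 3.31 in batch 1 WT. The ratio of Pcyt1a to Pcyt2 was 0.759 and 0.802 in Xbp1KO, against 1.15 and 0.831 in batch 2 WT, and 0.838 and 0.474 in Blimp1KO, against 0.974 and 0.955 in batch 1 WT.

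**Figure D3:**
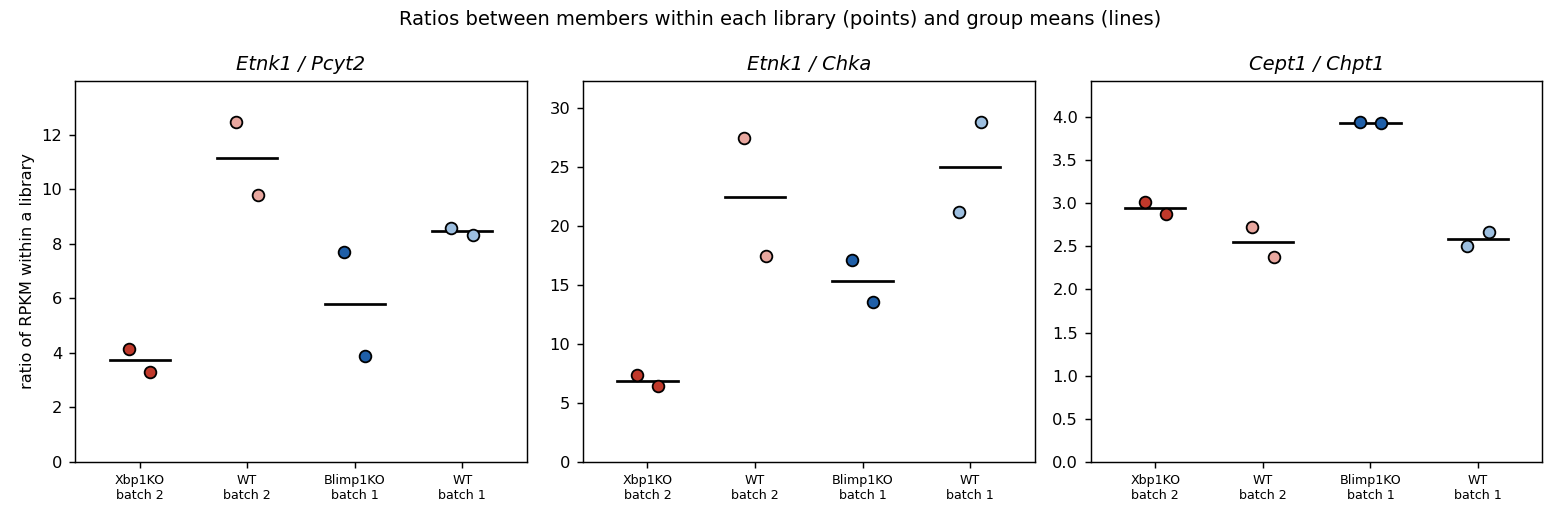
Ratio of RPKM of pairs of members within each library (points; lines are group means; linear axes from 0). The Etnk1 to Pcyt2 ratio is 4.14 and 3.30 in Xbp1KO and 12.5 and 9.78 in batch 2 WT, and the Cept1 to Chpt1 ratio is 3.95 and 3.93 in Blimp1KO and 2.50 and 2.66 in batch 1 WT.

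Chka (chromosome 19, 3851585 to 3894369) encodes choline kinase alpha, the entry to the choline arm, and no difference in it passed the test. It had 24.2 and 22.9 CPM in Xbp1KO, against 14.8 and 20.6 CPM in batch 2 WT. It had 16.3 and 14.7 CPM in Blimp1KO, against 13.6 and 10.8 CPM in batch 1 WT. Libraries of both knockouts lay above their WT libraries. The log2 fold changes were 0.41 ± 0.20 in Xbp1KO (adjusted p = 0.272) and 0.35 ± 0.20 in Blimp1KO (adjusted p = 0.524). With 1 library left out the value in Xbp1KO ran from 0.19 (without WT replicate 3) to 0.67 (without WT replicate 4), and that in Blimp1KO from 0.20 (without WT replicate 2) to 0.53 (without WT replicate 1). Batch 2 WT stood above batch 1 WT by 0.54 ± 0.20 (adjusted p = 0.151), a step between batches as large as either difference.

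Chkb (chromosome 15, 89426349 to 89429927), the gene of choline kinase beta, could not be measured. It had 31 and 25 counts in Xbp1KO, 23 and 39 in batch 2 WT, 3 and 5 in Blimp1KO, and 3 and 1 in batch 1 WT. The read-through gene Gm44502 covers 100% of its span in RefSeq and shares 50.7% of its exon bases in GENCODE on the same strand, and it had 0 counts in all 8 libraries. How reads shared by overlapping genes were counted is not given in the sources used here, so the level of Chkb is uncertain and no change is read from it. Its log2 fold changes, -0.79 ± 0.84 in Xbp1KO and 0.27 ± 1.03 in Blimp1KO, have intervals that include a doubling and a halving.

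Pcyt1a (chromosome 16, 32430921 to 32475065) encodes the main CTP:phosphocholine cytidylyl transferase, the rate-limiting enzyme of phosphatidylcholine synthesis. Its level was 31.5 and 34.7 CPM in Xbp1KO, against 36.2 and 29.5 CPM in batch 2 WT. In Blimp1KO it was 29.6 and 23.6 CPM, against 31.5 and 34.6 CPM in batch 1 WT. The Xbp1KO and WT libraries overlapped, while both Blimp1KO libraries lay below their WT libraries. The log2 fold change in Xbp1KO was 0.01 ± 0.17 (adjusted p = 0.981), with a 95% interval of -0.40 to 0.42. In Blimp1KO it was -0.31 ± 0.17 (adjusted p = 0.503), with an interval of -0.72 to 0.10, so neither interval holds a doubling or a halving. The Blimp1KO value was -0.44 without Blimp1KO replicate 1 and -0.16 without replicate 2. The opposite strand of 7.65% of its exon bases belongs to Slc51a, which had 0 to 6 counts.

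Pcyt1b (chromosome X, 93654863 to 93749951) encodes the beta form of that enzyme and had few counts. There were 45 and 187 counts in Xbp1KO, against 8 and 6 in batch 2 WT. Blimp1KO had 9 and 6 counts, and batch 1 WT had 2 and 11. On the CPM scale the level was 0.24 and 2.02 in Xbp1KO, against 0.07 and 0.09 in batch 2 WT, so most of the signal lay in Xbp1KO replicate 2. The log2 fold change of 3.85 ± 1.20 in Xbp1KO did not pass edgeR's test (adjusted p = 0.106), whereas DESeq2 called it (adjusted p = 0.0138). It was 1.66 (adjusted p = 0.480) without Xbp1KO replicate 2, and 4.61 (adjusted p = 0.0627) without replicate 1. Replicate 2 is also the library with the highest myeloid and erythroid marker sums, 1460 and 665 CPM. WT replicate 4, next by both sums at 608 and 204 CPM, had 0.09 CPM of Pcyt1b. Xbp1KO replicate 1, with sums of 44.0 CPM (41.7 of it Itgam) and 6.59 CPM, had 0.24. The part of other cells in the Pcyt1b signal was not tested. In Blimp1KO the log2 fold change was -0.46 ± 1.17 (adjusted p = 0.937).

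**Figure D4:**
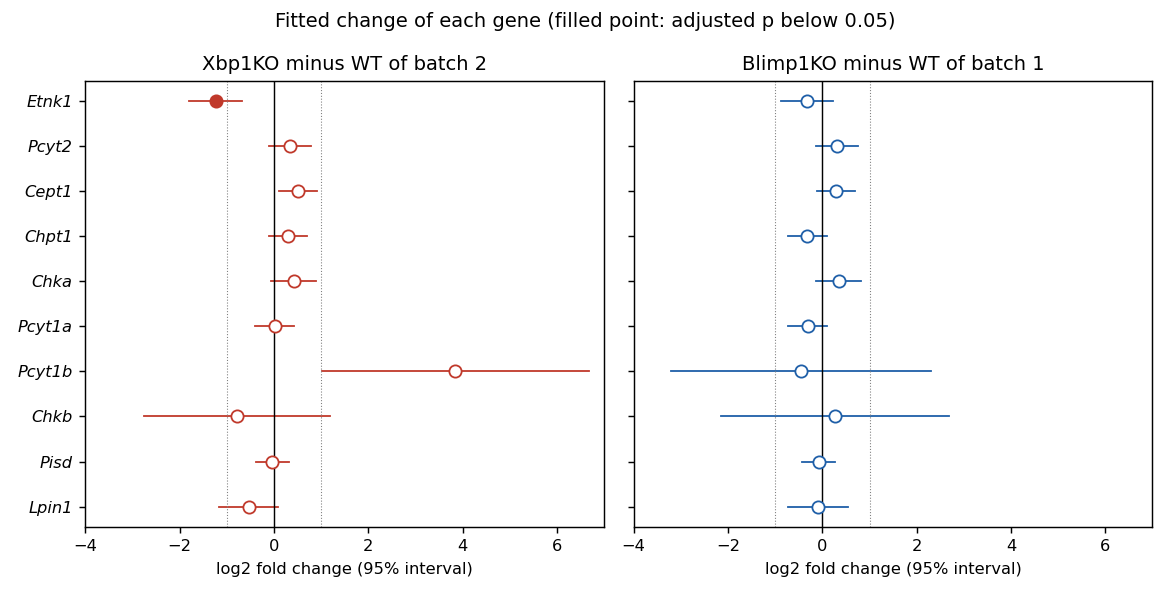
Log2 fold change (horizontal axis) and 95% interval of each gene in Xbp1KO against batch 2 WT (left) and in Blimp1KO against batch 1 WT (right), with dotted lines at a doubling and a halving. Etnk1 at -1.24 in Xbp1KO is the filled point (adjusted p below 0.05), and the wide intervals belong to Pcyt1b and Chkb.

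Among the members, the last step is carried out by Cept1, which accepts CDP-choline and CDP-ethanolamine, and by Chpt1, which is selective for CDP-choline. Selenoi, the ethanolamine phosphotransferase, is not among the 10 members and had 9.59 to 13.1 CPM over the 8 libraries. Cept1 (chromosome 3, 106502260 to 106547802) had 35.0 and 25.8 CPM in Xbp1KO, against 22.0 and 20.7 CPM in batch 2 WT. In Blimp1KO it had 26.9 and 29.5 CPM, against 22.8 and 23.1 CPM in batch 1 WT. Both knockouts lay above their WT libraries without overlap. The log2 fold change was 0.51 ± 0.17 in Xbp1KO (unadjusted p = 0.0202, adjusted p = 0.126) and 0.29 ± 0.17 in Blimp1KO (adjusted p = 0.530). The value in Xbp1KO was 0.20 without Xbp1KO replicate 1 and 0.74 without replicate 2.

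A share of 24.7% of the exon bases of Cept1 overlaps Dennd2d on the opposite strand, and the strand setting of the counting is not given. Dennd2d had 7.84 to 10.7 CPM over the 4 libraries of batch 2. It had 22.8 and 20.1 CPM in Blimp1KO, against 9.28 and 11.1 CPM in batch 1 WT, a log2 fold change of 1.07 ± 0.19 (adjusted p = 0.0616). The neighbour thus stood higher in Blimp1KO beside the higher Cept1 values, and its part in them was not tested.

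Chpt1 (chromosome 10, 88469513 to 88503970) had 14.3 and 11.1 CPM in Xbp1KO, against 9.93 and 10.7 CPM in batch 2 WT. It had 8.37 and 9.23 CPM in Blimp1KO, against 11.2 and 10.7 CPM in batch 1 WT. Its libraries lay above WT in Xbp1KO and below WT in Blimp1KO, with no overlap in either comparison. The log2 fold changes of 0.30 ± 0.17 (adjusted p = 0.355) and -0.32 ± 0.17 (adjusted p = 0.493) did not pass the test. The value in Xbp1KO was 0.027 without Xbp1KO replicate 1 and 0.50 without replicate 2. Sycp3, which overlaps 7.93% of its exon bases on the opposite strand, had 2 to 68 counts. The difference between both effects on Chpt1, 0.61 ± 0.24, did not pass either (adjusted p = 0.276). The ratio of Cept1 to Chpt1 in RPKM was 3.95 and 3.93 in Blimp1KO, against 2.50 and 2.66 in batch 1 WT, and 3.02 and 2.87 in Xbp1KO, against 2.73 and 2.38 in batch 2 WT.

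Pisd (chromosome 5, 32736301 to 32785642) encodes phosphatidylserine decarboxylase, which makes phosphatidylethanolamine in mitochondria apart from the Kennedy pathway. It had 11.1 and 10.1 CPM in Xbp1KO, against 10.1 and 11.7 CPM in batch 2 WT, and 12.2 and 13.0 CPM in Blimp1KO, against 13.8 and 12.7 CPM in batch 1 WT. Groups overlapped in both comparisons, with log2 fold changes of -0.04 ± 0.15 in Xbp1KO and -0.08 ± 0.15 in Blimp1KO, the narrowest errors among the members. Its pseudogene Pisd-ps1 had 3564 and 1448 counts in Xbp1KO and 995 and 766 in batch 2 WT, against 104 and 82 in Blimp1KO and 37 and 42 in batch 1 WT. In CPM, Pisd-ps1 lay above WT without overlap in both knockouts. Its log2 fold changes, 0.83 ± 0.22 in Xbp1KO (adjusted p = 0.0721 in edgeR) and 0.54 ± 0.24 in Blimp1KO (adjusted p = 0.390), did not pass the test. Between the WT groups, the log2 fold change of Pisd-ps1, batch 2 minus batch 1, was 3.50 ± 0.25 (adjusted p = 0.00338), so its level differed between WT of both batches. Summed with its pseudogenes, Pisd had a log2 fold change of 0.42 in Xbp1KO (adjusted p = 0.167), with the sign turned round. In GENCODE, 20.1% of the exon bases of Pisd also belong to Gm20671 on the same strand, which was not analysed here, so the value of Pisd is uncertain.

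Lpin1 (chromosome 12, 16535669 to 16653903) encodes lipin 1, a phosphatidate phosphatase that supplies the diacylglycerol to which head groups are joined. It had 4.57 and 6.53 CPM in Xbp1KO, against 8.79 and 7.35 CPM in batch 2 WT. It had 11.0 and 7.16 CPM in Blimp1KO, against 9.41 and 9.93 CPM in batch 1 WT. Both Xbp1KO libraries lay below their WT libraries, and the Blimp1KO libraries lay on both sides of theirs. The log2 fold change of -0.54 ± 0.27 in Xbp1KO did not pass the test (adjusted p = 0.285), and its 95% interval, -1.18 to 0.09, includes a halving. In Blimp1KO it was -0.09 ± 0.27 (adjusted p = 0.949).

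Libraries did not overlap for 7 of the 10 members in Xbp1KO, beside 57.6% of all genes tested, and for 5 of 10 in Blimp1KO, beside 43.1%. In Xbp1KO, Chka, Pcyt1b, Pcyt2, Chpt1 and Cept1 lay above WT, and Etnk1 and Lpin1 lay below. In Blimp1KO, Chka and Cept1 lay above WT, and Pcyt1a, Chpt1 and Etnk1 lay below. The 95% interval lay within a doubling and a halving for 6 members in Xbp1KO (Chka, Pcyt1a, Pcyt2, Chpt1, Cept1 and Pisd) and for 8 in Blimp1KO, all but Chkb and Pcyt1b. Of the difference between the Xbp1KO and Blimp1KO effects, edgeR called 0 members, against 1.68% of all genes tested. There, 3 members were at an unadjusted p below 0.05, beside 2399 of all 15073 genes, and 1, Etnk1, was called by DESeq2. Between batch 2 WT and batch 1 WT, edgeR called 0 members, against 2.81% of all genes tested. There, 2 members were at an unadjusted p below 0.05, beside 4087 of all 15073 genes, and 0 were called by DESeq2.

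The sequence before the transcription start is shown for Etnk1, the member that fell in Xbp1KO, and for Cept1, the member whose window holds letters of the XBP1 core motif. Both are the 250 bases before a RefSeq start on GRCm38.p6, chr6:143166980-143167229 on the plus strand for Etnk1 and chr3:106547626-106547875 on the minus strand for Cept1. Capitals mark matches on either strand to TGACGTGG, the unfolded protein response element bound by XBP1, to its core GACGTG, to CCACG from the ER stress element, or to GNGAAAGNG, a core bound by Blimp1.
Etnk1: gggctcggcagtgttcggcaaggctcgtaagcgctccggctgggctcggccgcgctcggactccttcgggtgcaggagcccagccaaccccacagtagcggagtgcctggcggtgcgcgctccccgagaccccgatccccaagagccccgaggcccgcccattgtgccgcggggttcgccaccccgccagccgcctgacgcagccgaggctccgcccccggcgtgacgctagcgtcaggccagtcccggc
Cept1: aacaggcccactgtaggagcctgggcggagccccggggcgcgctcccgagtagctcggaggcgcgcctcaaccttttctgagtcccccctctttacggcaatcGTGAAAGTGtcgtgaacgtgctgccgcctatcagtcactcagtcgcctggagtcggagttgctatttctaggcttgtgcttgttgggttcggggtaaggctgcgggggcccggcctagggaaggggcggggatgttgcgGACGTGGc
The Etnk1 window holds no match, and it lies within the gene's annotated span. In Cept1 the GACGTG match starts 8 bases before the transcription start and overlaps a CCACG match on the other strand, and GTGAAAGTG matches the Blimp1 core. RefSeq windows were found for 9 of the 10 members, 15 windows in all. TGACGTGG was in 0 of them, where 0.563% of 32851 mouse promoter windows hold it. GACGTG was in 1 of the 15 windows (5.20% of all windows), CCACG in 8 (28.3%) and GNGAAAGNG in 3, of Cept1, Pcyt1a and Chka (6.28%). Windows of 1 gene can overlap, so the 15 are not independent. These matches describe letters in the windows and show neither binding nor its absence.

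Beside the members, 64 other genes of phospholipid supply, remodelling and breakdown were listed, of which 59 passed the filter. In Xbp1KO 1 of them fell and 0 rose, with 12 at an unadjusted p below 0.05 and a median log2 fold change of 0.0063, while DESeq2 called 3 lower. In Blimp1KO edgeR called 0, with 11 at an unadjusted p below 0.05 and a median of -0.07, whereas DESeq2 called 1 higher and 3 lower. Of all 15073 genes tested, edgeR called 7.7% in Xbp1KO and 0.862% in Blimp1KO, with 3552 and 2093 at an unadjusted p below 0.05. DESeq2 called 2220 and 862 of them. Of the 59 genes, the one that fell in Xbp1KO was Pla2g6, a calcium-independent phospholipase A2 that releases fatty acids from phospholipids. It had 11.2 and 10.8 CPM in Xbp1KO, against 27.6 and 26.6 CPM in batch 2 WT, a log2 fold change of -1.30 ± 0.13 (adjusted p = 0.00359). In Blimp1KO it had 16.4 and 15.7 CPM, against 25.7 and 22.9 CPM in batch 1 WT, at -0.60 ± 0.13 (adjusted p = 0.0984 in edgeR and 0.0233 in DESeq2). Under total counts Pla2g6 stood at -0.15 in Xbp1KO (adjusted p = 0.422) and at 0.20 in Blimp1KO.

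Slc44a1, a choline transporter, did not pass edgeR's test in either knockout. It had 76.0 and 59.1 CPM in Xbp1KO, against 138 and 121 CPM in batch 2 WT, and 75.9 and 43.5 CPM in Blimp1KO, against 124 and 123 CPM in batch 1 WT. All 4 knockout libraries lay below all 4 WT libraries. The log2 fold changes were -0.94 ± 0.28 in Xbp1KO (adjusted p = 0.0945 in edgeR and 0.00932 in DESeq2) and -1.05 ± 0.28 in Blimp1KO (adjusted p = 0.159 in edgeR and 0.00864 in DESeq2), and under total counts they were 0.21 and -0.24. The difference between both effects was 0.11 ± 0.39 (adjusted p = 0.944).

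In the other lists of phospholipid genes 0 were called by edgeR in either knockout (their unadjusted and DESeq2 counts are part of those given for the 59 genes), and the gene with the smallest p of each is given as a value. Of the remaining head-group enzymes, Ptdss2, a phosphatidylserine synthase, stood at a log2 fold change of 0.82 ± 0.26 in Xbp1KO (adjusted p = 0.111). Selenoi, the ethanolamine phosphotransferase, stood at 0.14 ± 0.17 in Blimp1KO (adjusted p = 0.831). Of the phosphatidate and diacylglycerol enzymes, Gpat4 stood at -0.46 ± 0.15 in Xbp1KO (adjusted p = 0.113) and Plpp2 at 0.92 ± 0.31 in Blimp1KO (adjusted p = 0.251). Crls1, the cardiolipin synthase, led its list in both knockouts, at -0.40 ± 0.13 in Xbp1KO (adjusted p = 0.123) and -0.45 ± 0.13 in Blimp1KO (adjusted p = 0.198). Of the enzymes that remodel acyl chains, Lpcat3 and Mboat2 transfer fatty acids onto lysophospholipids. Lpcat3 stood at 0.49 ± 0.17 in Xbp1KO (adjusted p = 0.139). Mboat2 had 0.615 and 0.568 CPM in Blimp1KO, against 2.90 and 2.14 CPM in batch 1 WT, at -2.09 ± 0.34 (adjusted p = 0.0504 in edgeR and 1.82e-05 in DESeq2, with a range of 1.82e-05 to 0.368 over the alternatives).

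**Figure D5:**
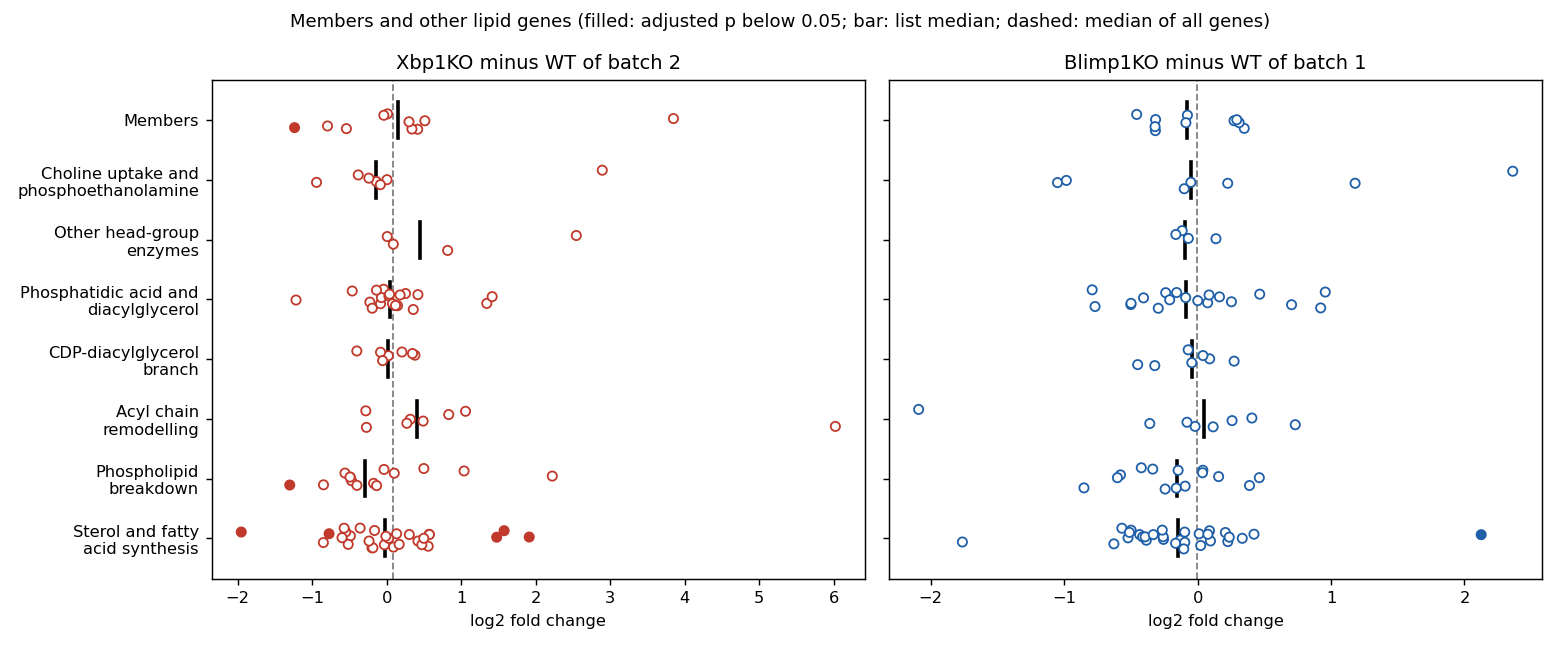
Log2 fold change (horizontal axis) of each gene (points; filled where the adjusted p is below 0.05) by list, with list medians (bars) and the median of all genes tested (dashed), for Xbp1KO (left) and Blimp1KO (right). In Xbp1KO the filled points are Etnk1, Pla2g6 and 5 genes of sterol and fatty acid synthesis, and in Blimp1KO Scd1.

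Of 30 genes of sterol and fatty acid synthesis, which supply the other lipids of the same membranes, 3 rose and 2 fell in Xbp1KO, and 15 had an unadjusted p below 0.05. Their median log2 fold change was -0.02. Of all 15073 genes tested, 7.7% were called in Xbp1KO and 3552 had an unadjusted p below 0.05. Sqle, an enzyme of cholesterol synthesis, rose by 1.57 ± 0.22 (adjusted p = 0.00883), while Insig1, which holds the SREBP complex in the endoplasmic reticulum, stood at -1.95 ± 0.24 (adjusted p = 0.00687). The Sqle call was lost without WT replicate 4 (1.35, adjusted p = 0.0628) or Xbp1KO replicate 1 (1.36, adjusted p = 0.0638). The Insig1 call was lost without WT replicate 3 (adjusted p = 0.0501) and under total counts (-0.77, adjusted p = 0.0503). In Blimp1KO 1 gene of the list rose and 0 fell, beside 0.862% of all genes tested, with a median of -0.15. There, 6 genes of the list had an unadjusted p below 0.05, beside 2093 of all 15073. Scd1, the stearoyl-CoA desaturase, had 228 and 202 CPM in Blimp1KO, against 48.6 and 50.1 CPM in batch 1 WT, at 2.13 ± 0.24 (adjusted p = 0.0272). That call was lost when WT replicate 1, 2, 3 or 4 was left out (adjusted p = 0.0507 to 0.266) and with batch 1 alone (adjusted p = 0.0567), while the log2 fold change stayed between 2.11 and 2.17 in these fits.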

How the data were processed

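Raw read counts per Entrez gene, whole numbers with no normalization, were deposited in 1 table for all 8 libraries, per the file headers. Per-sample log2 FPKM values were also deposited, per the file headers. These log2 values share 1 distribution over the 8 files (median SD of equal ranks 0.000844), as after quantile normalisation, which no source used here states, and within batch 1 WT and within Blimp1KO the values of replicates 1 and 2 match the other replicate's counts (Spearman correlation with the own number 0.989 and 0.966). Subread, featureCounts and limma, with builds GRCm38 and mm10, are named in the submitters' processing notes. Strand setting, filters and read length are not given in the sources used here. RNeasy Micro served for RNA and TruSeq RNA for libraries, per the labels' protocols.

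Gene names came from the files for 13860 of 27179 identifiers and from RefSeq (GRCm38.p6) for 11720, and 1599 had none. In R 4.3.3, edgeR 4.0.16 fitted 4 group means to all 8 libraries after filterByExpr (minimum count 10) and TMM scaling. Quasi-likelihood tests used 4 residual and 3.06 prior degrees of freedom and Benjamini-Hochberg adjustment over 15073 genes. A gene was called at an adjusted p below 0.05. SE is the log2 fold change divided by the square root of F. RPKM was computed from CPM and the deposited gene length. The p-values measure the spread between libraries, which may be technical where a replicate is not a separate mouse. Alternatives used DESeq2 1.42.0 and limma 3.58.1, other scalings, no filter, other samples and each library left out. Replicates of a group differed by more than counting noise (chi-square per degree of freedom 265 to 639). This is a mean over genes on total counts without TMM, with immunoglobulin genes included. Genes with very many counts can dominate it, so it does not describe the spread of a typical gene. Promoter windows and member positions are from RefSeq, and exon overlaps from GENCODE gene models.

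The members and lists were chosen with earlier results of these data known. All members are named. Of each other list the called genes, at most 4 per comparison, or else the gene with the smallest p, are named, and at most 3 called genes of the sterol list per comparison. Of the genes so picked 1 is not reported here, and other called genes are only counted.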

Additional observations from a re-analysis of the deposited data

Results flagged for a closer look

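Of the genes named, 3 had effects that differed between the knockouts by the test of the difference itself, Xbp1KO effect minus Blimp1KO effect (edgeR, adjusted over all genes), and none is among the 10 members. The difference was 2.92 ± 0.47 (log2, SE; adjusted p = 0.0363) for Mboat2, an acyltransferase, which had 3.82 and 3.44 CPM in Xbp1KO, 1.71 and 2.38 CPM in batch 2 WT, 0.615 and 0.568 CPM in Blimp1KO and 2.90 and 2.14 CPM in batch 1 WT. For Sqle the difference was 1.83 ± 0.30 (adjusted p = 0.0395). For Scd1 it was -2.14 ± 0.33 (adjusted p = 0.0331). Each effect was measured against WT of its own batch. Over all genes tested, 1.68% were called for this difference. The named genes were picked by their p in 1 of the knockouts, which is part of the difference, so these tests are not independent of the pick. Mboat2 was called by edgeR in neither knockout. The 3 differences were not followed under the alternatives. Groups of 2 libraries are too small for a search for single outlying samples.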

How the results depend on the processing

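The 10 members and the named genes gave 679 log2 fold changes under alternatives, of which 596 kept their direction and their side of the threshold and 34 turned sign, 14 of these under total counts. In Xbp1KO 1 member was called, against 2 with DESeq2, 2 with no filter and 7 under total counts, and 0 to 1 with a library left out. All genes called in Xbp1KO numbered 1160, against 2220 with DESeq2 and 9474 under total counts (9174 higher and 300 lower, where the reported split was 397 higher and 763 lower), and 225 to 2123 with a library left out. In Blimp1KO 0 members were called, against 4 under total counts. All genes called there numbered 130 (87 higher and 43 lower), against 862 with DESeq2, 5895 under total counts (5835 higher and 60 lower), 517 with no filter, 20 in the own batch alone (20 higher), 269 against pooled WT, 83 with limma-voom and 0 to 688 with a library left out. DESeq2 called 1 member of the difference between effects, and total counts called 3 members between the WT groups.

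The replicate block, a term for the replicate numbers shared in batch 1, gave 1 member and 1021 genes in Xbp1KO and 0 members and 89 genes in Blimp1KO, and changed no call of a member. Deviations of same-numbered libraries of batch 1 correlated at 0.22 over 2 pairs, and the labels do not say that a number marks anything shared.

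Total counts turned the sign in Xbp1KO of Chkb (0.33), Pisd (1.10), Lpin1 (0.65), Slc44a1 (0.21), Gpat4 (0.69) and Crls1 (0.75), and in Blimp1KO of Pcyt1a (0.48), Pcyt1b (0.31), Chpt1 (0.48), Etnk1 (0.48), Pisd (0.72), Lpin1 (0.72), Crls1 (0.34) and Pla2g6 (0.20). By its construction this scaling shifts all genes together, by a median of 1.16 and 0.79. The near-zero Pcyt1a value in Xbp1KO turned to -0.0059 with DESeq2, -0.0054 with RLE, -0.045 without immunoglobulin genes and -0.0015 in its own batch, and ran from -0.14 to 0.16 with a library left out. Pooled WT turned Chkb to 0.0087 in Xbp1KO and -1.98 in Blimp1KO, and in Blimp1KO Pisd to 0.059 and Lpin1 to 0.037. Pisd summed with its pseudogenes was 0.42 in Xbp1KO. With a library left out, Chkb ran from -1.38 to 0.13 and Pisd from -0.18 to 0.059 in Xbp1KO, and in Blimp1KO Chkb ran from -0.33 to 1.30, Pcyt1b from -1.18 to 1.14, Pisd from -0.13 to 0.018 and Lpin1 from -0.39 to 0.20. The cause of these turns, other than under total counts, was not tested.

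The adjusted p of Etnk1 in Xbp1KO ran from 1.43e-06 (DESeq2) to 0.770 (total counts), and that of Pcyt1b from 0.0130 (total counts) to 0.480 (without Xbp1KO replicate 2). Each group has 2 libraries, and the counts of Chkb and Pcyt1b are too few to bound a change at this depth.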
